A study of Mus musculus with 10 samples.

Results

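Cytosolic ribosomal protein genes were followed in normal mouse lung and in lung squamous cell carcinoma (SCC). They were taken from the count table by symbol: Rpl or Rps followed by a digit, Rplp0, Rplp1, Rplp2 and Rpsa, without the S6 kinase genes and without symbols that mark pseudogenes. This gave 88 of 24421 genes. The 10 libraries came from wild-type mice of the NIH Swiss stock, 5 from normal lung of untreated animals and 5 from lung SCC of animals given NTCU, a nitrosourea that induces squamous tumours of the lung. The regions were laser-captured from formalin-fixed, paraffin-embedded sections, and their total RNA went through a strand-specific library kit meant for picogram amounts. The sources used here do not give age, dose or the animal behind each library. If regions share an animal, p-values over libraries are too small, and they may measure technical spread only.

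A ribosome is built from a small and a large subunit, each a core of ribosomal RNA coated with proteins that are mostly made in equal numbers. In mammals the mRNAs of these proteins begin with a tract of pyrimidines, the 5' terminal oligopyrimidine (TOP) motif, through which mTOR and the RNA-binding protein LARP1 control their translation as a group. Ribosomal protein genes are highly expressed in dividing cells and have many processed pseudogenes, and several have a paralog that is used in muscle or testis.

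The starts of the members whose folds stood highest and lowest are shown so that the pyrimidine tract at the start can be read beside the values. RefSeq (GRCm38.p6) gave starts for 67 of the 88 members. Each sequence runs 5' to 3' from 40 bases before the annotated start to 25 bases from it, and capitals mark the longest run of pyrimidines that reaches within 5 bases of the start, where it is at least 6 bases long. The first 7 genes were among the 8 of highest fold in SCC over normal lung and the other 6 among the 8 of lowest fold, with each one that has an entry in the RefSeq table shown.
Rpl12 (chr2:32961672-32961736, plus strand): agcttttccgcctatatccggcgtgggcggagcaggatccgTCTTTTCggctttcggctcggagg
Rplp0 (chr5:115559427-115559491, plus strand): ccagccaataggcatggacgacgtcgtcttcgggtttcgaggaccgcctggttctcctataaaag
Rps2 (chr17:24720023-24720087, plus strand): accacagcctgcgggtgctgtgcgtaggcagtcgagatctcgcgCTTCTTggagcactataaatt
Rpl28 (chr7:4792925-4792989, plus strand): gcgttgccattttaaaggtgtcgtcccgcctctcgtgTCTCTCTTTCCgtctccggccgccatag
Rpl10a (chr17:28328431-28328495, plus strand): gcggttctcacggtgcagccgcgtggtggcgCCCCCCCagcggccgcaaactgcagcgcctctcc
Rps26 (chr10:128626482-128626546, minus strand): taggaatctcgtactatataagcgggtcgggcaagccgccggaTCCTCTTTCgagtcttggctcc
Rps25 (chr9:44407674-44407738, plus strand): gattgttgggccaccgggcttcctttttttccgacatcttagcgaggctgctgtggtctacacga
Rpl26 (chr11:68901526-68901590, plus strand): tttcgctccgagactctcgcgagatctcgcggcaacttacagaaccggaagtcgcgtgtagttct
Rpl22l1 (chr3:28805468-28805532, plus strand): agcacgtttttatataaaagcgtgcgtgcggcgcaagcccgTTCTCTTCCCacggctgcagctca
Rpl36al (chr12:69184043-69184107, minus strand): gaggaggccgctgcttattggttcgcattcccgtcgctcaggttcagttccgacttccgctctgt
Rpl10 (chrX:74270776-74270840, plus strand): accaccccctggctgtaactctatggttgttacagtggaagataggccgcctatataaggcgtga
Rpl34 (chr3:130730374-130730438, minus strand): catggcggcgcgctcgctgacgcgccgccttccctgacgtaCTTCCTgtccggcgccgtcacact
Rpl37a (chr1:72711220-72711284, plus strand): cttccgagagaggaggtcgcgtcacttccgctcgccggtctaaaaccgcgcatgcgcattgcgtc

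Such a pyrimidine run stood at 33 of 67 member genes (49.3%), against 24.0% of all 27025 genes in the RefSeq table. A C at the annotated start followed by 4 pyrimidines was found at 14 of 67 (20.9%) against 3.01%. In the window of 250 bases before and 50 bases after the start, the motif CCGGAAG (on either strand, the core bound by ETS factors) was in 26 of 67 (38.8%) against 9.93%, and AAGATGG (on either strand, a core bound by YY1) in 10 of 67 (14.9%) against 7.28%. TATAAA (either strand) was in 7 of 67 (10.4%) against 15.7%. Among the 13 genes printed, the run was present in 5 of 7 at the high end (Rpl12, Rps2, Rpl28, Rpl10a and Rps26) and in 2 of 6 at the low end (Rpl22l1 and Rpl34), numbers too small to compare. These are matches of letters at annotated starts, not measured starts.

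Total counts ran from 1004105 to 6817106 per library. The tissue labels held: the 7 squamous and basal markers summed to 1.43 to 7.55 CPM (counts scaled to the library total) in normal lung and 992 to 7229.8 in SCC, and the 6 alveolar type 2 markers to 7121 to 10300.4 and 393 to 714. The SCC libraries themselves fell into sets. Olfactory, vomeronasal and trace amine receptor genes, which lung does not use, were counted at 3.45 to 3.70 CPM per kb of coding length in SCC 1, SCC 3 and SCC 4. They were at 0.621 (SCC 2) and 0.435 (SCC 5) in the other tumours and at 0.0428 to 0.213 in normal lung. As a background spread over transcript length, this signal equalled 22.3% to 23.9% of all counts in the first 3 and 2.81% to 4.01% in the other 2. On the ribosomal protein genes, which are short and abundant, it equalled 2.46% to 3.60% of the counts in the first set and at most 0.215% in the second. SCC 3 and SCC 4 had the lowest chi-square per degree of freedom of all pairs within a group (2.93, against 11.5 or more), a measure that grows with depth, and differed by more than sampling noise. By Spearman correlation over all genes (0.920) they came after normal 1 and normal 3 (0.924). SCC 1, SCC 3 and SCC 4 are called the high-signal libraries below, and the remaining pair (SCC 2 with SCC 5) the low-signal libraries. A fit of either set against the 5 normal libraries is called the high-signal or low-signal fit. Neither fit subtracts the background, and CPM values keep it as well.

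The 88 genes together took very different shares of the SCC libraries. In normal lung (libraries 1 to 5, as in every list of 5 values here) they made up 1.30%, 1.04%, 1.33%, 0.999% and 1.22% of all counts. In SCC they made up 1.13%, 2.32%, 0.780%, 0.827% and 2.63%. SCC 2 and SCC 5 lay above every normal library, SCC 3 and SCC 4 below every one, and SCC 1 within the normal range. In CPM, normal lung summed to 11785 ± 1497 (SD, n = 5) and the tumours to 15375 ± 8747 (SD, n = 5) (ratio 1.30). The ratio was 2.10 for the low-signal libraries and 0.773 for the high-signal libraries. Without SCC 5 it was 1.07 and without SCC 2 it was 1.14. These shares and ratios keep the background in the library total. In the high-signal libraries it equalled 22.3% to 23.9% of all counts but only 2.46% to 3.60% of the member counts, which lowers their shares. Their places below or within the normal range therefore hold for unsubtracted counts only. With the background subtracted the ratio over all SCC libraries was 1.42, and shares by library or set were not computed. Fewer cells of a type and less RNA per cell cannot be told apart in such bulk samples. The high-signal libraries were also the 3 SCC libraries of lowest ribosomal protein share, so within SCC a difference between tumours cannot be told apart from one that goes with the signal.

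**Figure D1:**
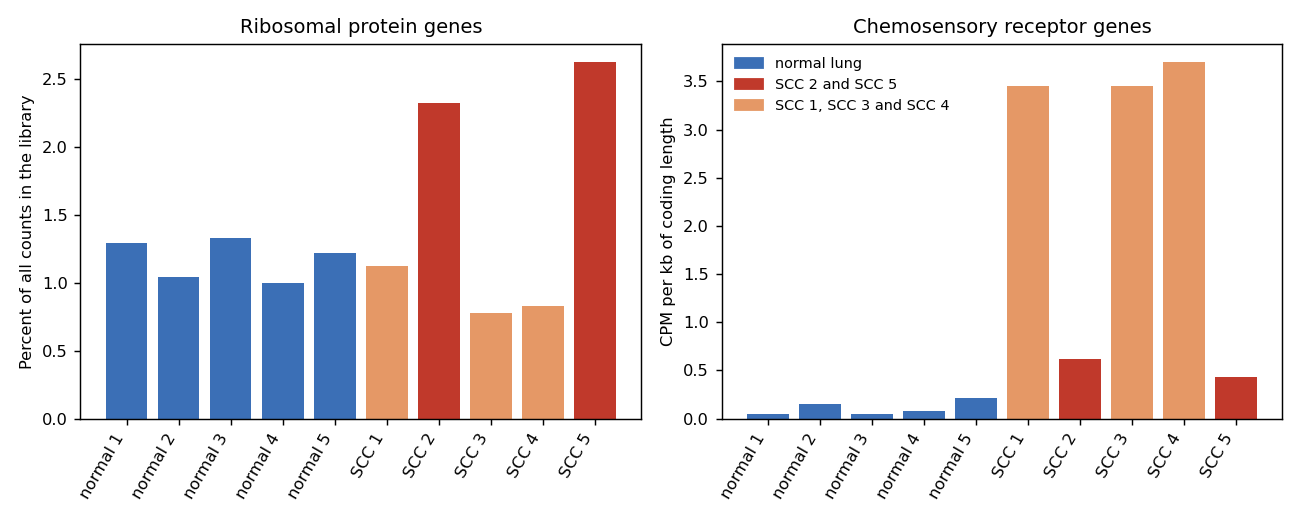
Left, percent of all counts on the 88 ribosomal protein genes in each library; right, counts on chemosensory receptor genes in CPM per kb of coding length. Blue bars are normal lung, red bars SCC 2 and SCC 5, orange bars SCC 1, SCC 3 and SCC 4: the red bars are highest on the left (2.32% and 2.63%) and the orange bars on the right (3.45 to 3.70).

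Both subunits shared this pattern. Genes of the large subunit summed to 6220 to 8361 CPM in normal lung and to 7222, 14446, 4998, 5348 and 16225 CPM in SCC. Those of the small subunit summed to 3769 to 4935 CPM in normal lung and to 4041, 8798, 2805, 2918 and 10075 CPM in SCC. The ratio of large to small subunit counts was 1.56 to 1.73 in normal lung. It was 1.64 (SCC 2) and 1.61 (SCC 5) in the low-signal libraries, within the normal range. The high-signal libraries, at 1.79, 1.78 and 1.83, lay above every normal library.

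In the comparison of 5 SCC with 5 normal libraries, few ribosomal protein genes passed the test. Of 88 members 81 passed the filter on low counts, 2 of these were higher in SCC (Rpl12 and Rps2) and 0 were lower (adjusted p under 0.05 over 13203 genes, quasi-likelihood test of edgeR with the Benjamini-Hochberg method). Over all genes tested, 12.5% were higher and 8.68% lower by the same rule, 21.1% in all. At an unadjusted p under 0.05 there were 7 members, each of them higher. The log2 fold change was above 0 for 65 and below 0 for 16 members, with a median of 0.31 against 0.07 over all genes tested. DESeq2 called 6 higher and 0 lower. limma-voom with sample quality weights called 3 higher and 30 lower, with a median of -0.56. The direction of the median thus differed between the tools. The median was 0.10 without normal 2, 0.17 without normal 4, 0.18 without normal 5, 0.14 without SCC 2, -0.04 without SCC 5, 0.62 with the background subtracted, 0.03 on the scale of summed member counts and 0.02 with no filter on low counts. The number of members above 0 was 37 of 82 without SCC 5, 49 of 80 without SCC 2 and 17 of 81 with limma-voom.

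**Figure D2:**
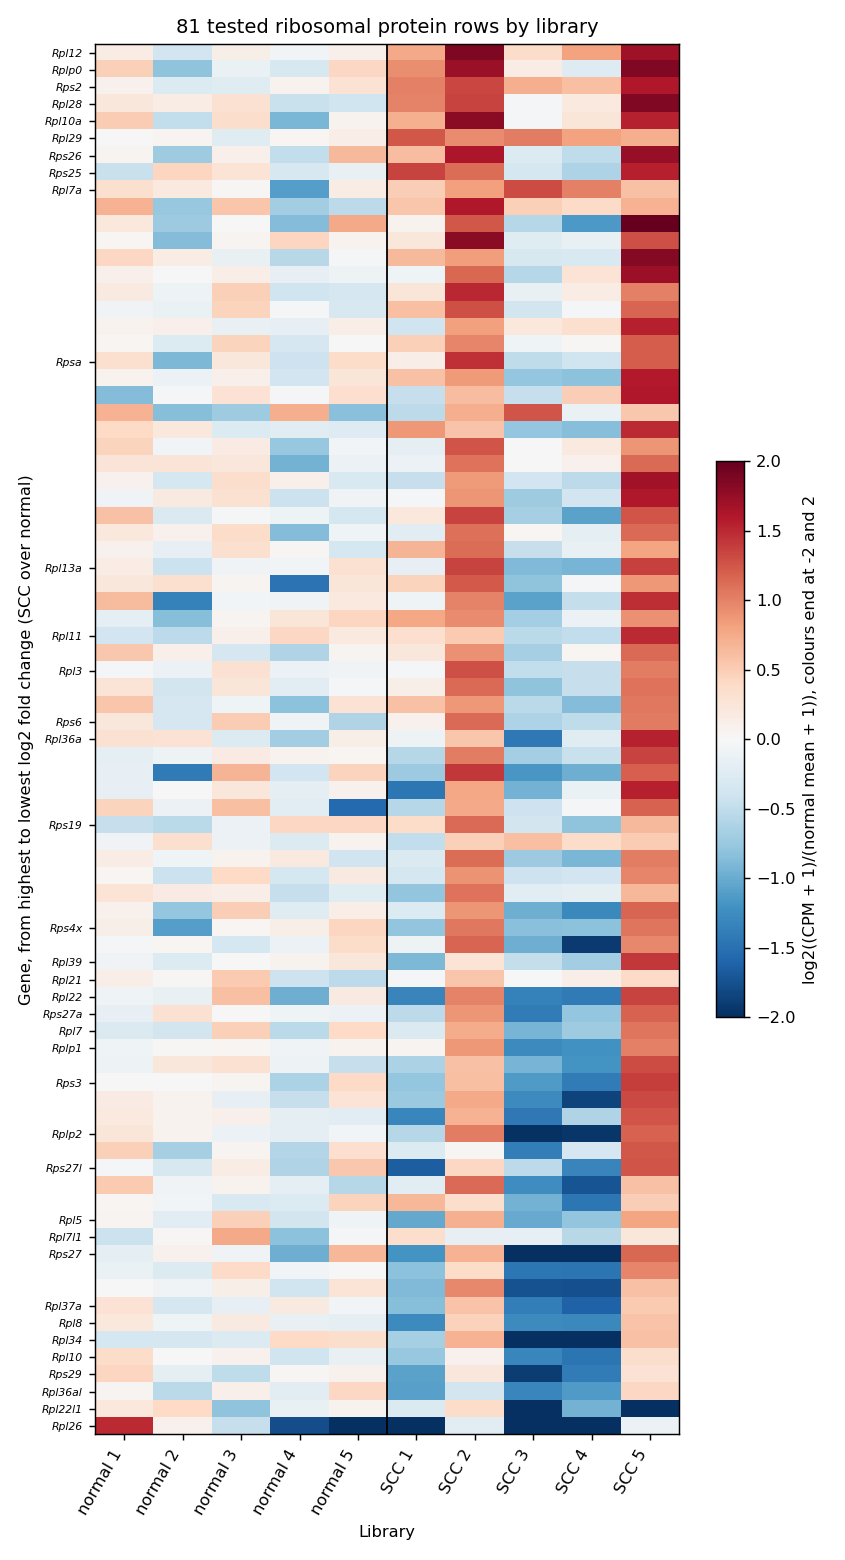
The 81 tested ribosomal protein genes (rows, ordered by log2 fold change) in 10 libraries (columns), coloured by log2 of CPM + 1 over the normal mean + 1, with colours ending at -2 and 2 and the named genes labelled. SCC 2 and SCC 5 are red over most rows, SCC 3 and SCC 4 blue over the lower rows, and the rows at the top are red in most SCC columns.

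Rpl12, a protein of the base of the large subunit stalk (chromosome 2, 32961559 to 32965345, GRCm38), had 127, 88.2, 125, 110.3 and 123 CPM in normal lung. In SCC it had 195, 420.1, 148, 201 and 375 CPM. Each SCC library lay above each normal library, and the log2 fold change was 1.11 (SE 0.37, n = 5 each, edgeR adjusted p = 0.0323). In the low-signal fit it was 1.67 (adjusted p = 0.000727), and in the high-signal fit 0.29 (adjusted p = 0.424). When 1 library was left out, the call held in 2 of 10 fits, those without SCC 1 and without SCC 3, and the adjusted p ran from 0.0349 to 0.191. It was also lost with no filter on low counts (adjusted p = 0.156) and with a filter of 1 CPM in 5 libraries (adjusted p = 0.0607).

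Rps2, a small subunit protein at the entry of the mRNA channel (chromosome 17, 24718116 to 24721929), had 132, 103, 105, 129.6 and 151 CPM in normal lung and 249.8, 314, 205, 189 and 376 CPM in SCC. The groups did not overlap (log2 fold change 1.0, SE 0.35, n = 5 each, edgeR adjusted p = 0.0446). The call was lost in each of the 10 fits that left out 1 library, with an adjusted p from 0.0593 to 0.241 and a log2 fold change from 0.76 to 1.02. With no filter on low counts the adjusted p was 0.250, and with a filter of 1 CPM in 5 libraries it was 0.0917. Rps2 passed in the low-signal fit (1.36, adjusted p = 0.00661) and not in the high-signal fit (0.43, adjusted p = 0.229).

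In 4 of the 81 tested members the CPM of each SCC library exceeded that of each normal library, and in 0 the reverse, where 8.81% and 5.77% of all genes tested did so. The other 2 were Rpl29 and Rpl7a, the latter named after its values were seen. Rpl29, a large subunit protein that also binds heparin, had 119.9, 124, 100.5, 122 and 131 CPM in normal lung. In SCC it had 284, 230.0, 245, 209 and 198 CPM, a log2 fold change of 0.84 (SE 0.33, edgeR adjusted p = 0.0742). It was higher in the high-signal fit (0.67, adjusted p = 0.0488) and in the low-signal fit did not pass (0.71, adjusted p = 0.193). Rpl7a, a large subunit protein whose introns hold small nucleolar RNAs, had 129, 118, 105, 47.4 and 115 CPM in normal lung and 144, 183, 254, 207 and 154 CPM in SCC, with its highest values in SCC 3 and SCC 4 (log2 fold change 0.77, SE 0.36, edgeR adjusted p = 0.134).

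Rps2, Rpl29 and Rpl7a share sequence with many pseudogenes. Of the GENCODE M21 pseudogenes outside the gene's own locus, 71, 81 and 120 held at least 1 stretch of 50 bases identical to the Rps2, Rpl29 and Rpl7a transcripts, and 14 did for Rpl12. Rpl21 (81) and Rpl17 (50) also had many. Of all stretches of 50 bases, 76.8% (Rps2), 66.6% (Rpl29), 81.2% (Rpl7a) and 49.0% (Rpl12) also occur in other annotated genes, and reads within these cannot be assigned to 1 gene by sequence. Among the 77 tested members with a mean of at least 20 CPM, the 11 with more than 20 such pseudogenes had a median ratio of 1.06 in the high-signal libraries over normal lung. The 42 with 6 to 20 had 0.733 and the 24 with up to 5 had 0.747. In the low-signal libraries the medians were 2.16, 2.12 and 2.05. The part of pseudogene reads in the values of Rps2, Rpl29 and Rpl7a was not tested.

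The remaining large subunit genes at the top of the ranking followed SCC 2 and SCC 5. Rplp0, the scaffold of the P stalk that recruits elongation factors, had 305, 124, 199, 174 and 292 CPM in normal lung and 419.5, 729, 244, 183 and 795 CPM in SCC. Its log2 fold change of 1.02 (SE 0.43, n = 5 each) missed the threshold (edgeR adjusted p = 0.0988), and in the low-signal fit it was 1.69 (adjusted p = 0.00127). Rpl28 had 109.5, 104, 116, 68.3 and 70.7 CPM in normal lung and 187, 239.7, 91.4, 108 and 342 CPM in SCC, where SCC 1, SCC 2 and SCC 5 exceeded each normal library and SCC 3 and SCC 4 did not (0.95, SE 0.39, edgeR adjusted p = 0.0849). Rpl10a, of the L1 stalk that handles tRNA exit, stood at 0.95 (SE 0.41, adjusted p = 0.101).

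In SCC 3 and SCC 4 the acidic stalk proteins that sit on Rplp0 lay below each normal library, while Rplp0 did not. Rplp1 had 295, 316, 321, 298 and 329 CPM in normal lung. In SCC it had 323, 570.2, 128, 133 and 629 CPM. Rplp2 had 255, 226, 198, 186 and 206 CPM in normal lung and 144, 439, 53.4, 54.8 and 484 CPM in SCC, with SCC 1, SCC 3 and SCC 4 below the lowest normal value. In SCC 3 the CPM of Rplp0 was above the mean of normal lung and those of Rplp1 and Rplp2 were below every normal library. Neither Rplp1 nor Rplp2 passed the test over 5 SCC libraries (edgeR adjusted p = 0.911 and 0.965), and whether Rplp0 differs from them was not tested.

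**Figure D3:**
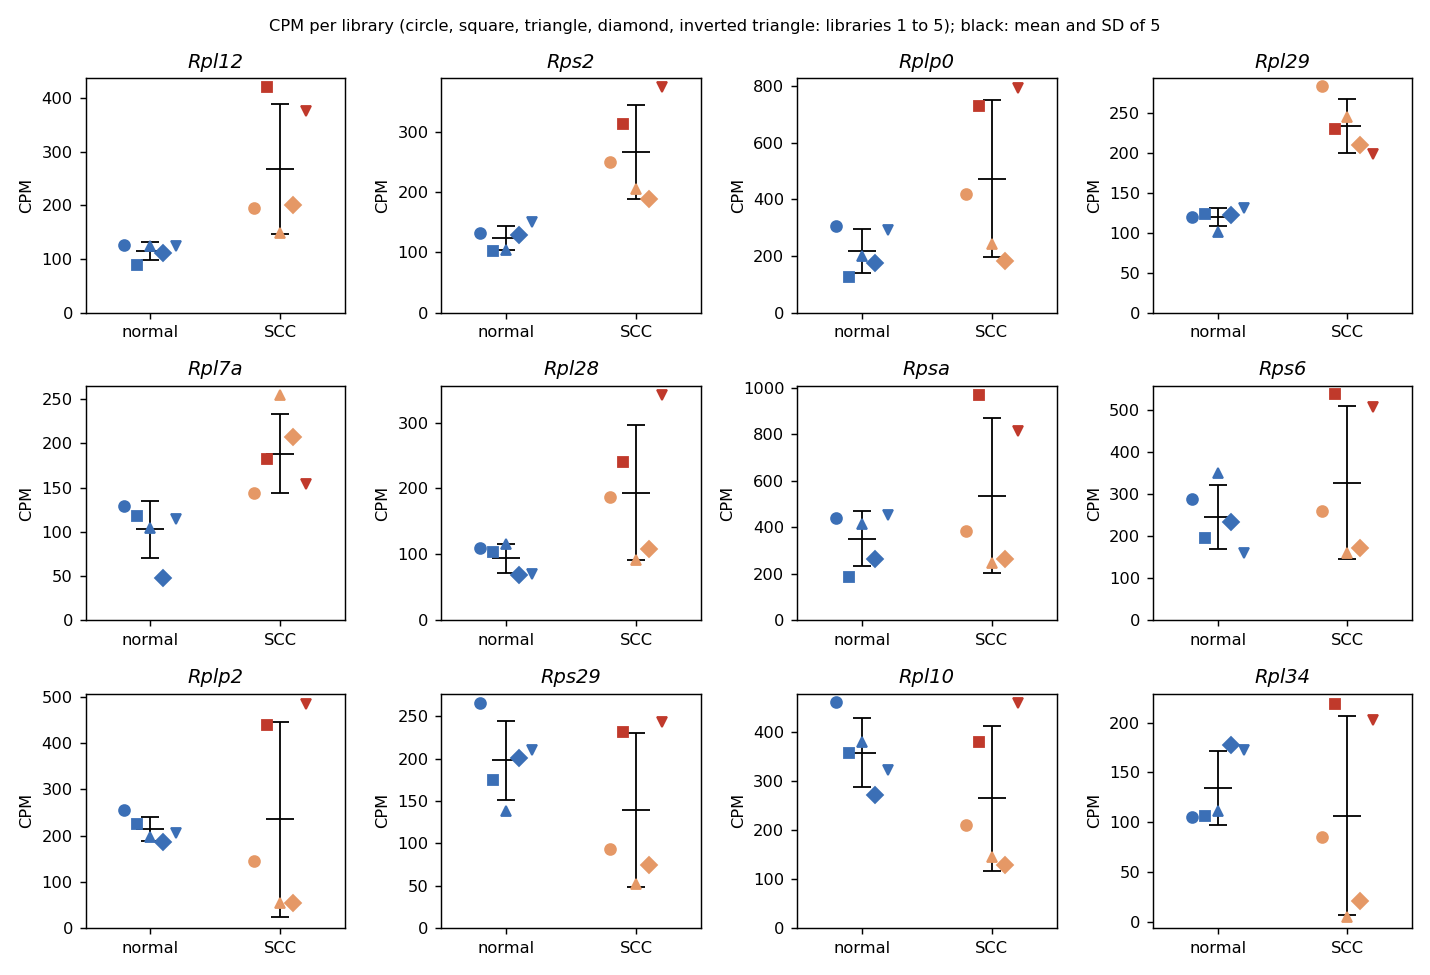
CPM of 12 ribosomal protein genes per library, normal lung in blue, the low-signal libraries in red and the high-signal ones in orange, with the mean and SD of 5 libraries in black. In Rpl12, Rps2, Rpl29 and Rpl7a each SCC point lies above each normal point; in Rplp2, Rps29, Rpl10 and Rpl34 the orange points lie below the normal points.

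Large subunit proteins with roles outside the ribosome likewise differed between the SCC libraries. Rpl5 and Rpl11, which with the small ribosomal RNA of the large subunit form a particle that inhibits Mdm2, had 320.3, 262, 431, 239 and 291 CPM and 60.8, 55.4, 85.5, 107 and 91.2 CPM in normal lung. In SCC, Rpl5 had 152, 507, 153, 178 and 536 CPM and Rpl11 101, 115, 54.5, 56.8 and 228 CPM. For Rpl5 SCC 2 and SCC 5 lay above and the other 3 below each normal library, while for Rpl11 SCC 2 and SCC 5 lay above, SCC 3 just below and SCC 1 and SCC 4 within the normal range. Of the p53 surveillance genes Trp53, Mdm2, Mdm4 and Cdkn1a, 0 of 4 passed the edgeR test, 1 was higher and 1 lower at an unadjusted p under 0.05, and DESeq2 called 1 higher and 1 lower. Rpl22 had 132, 126, 213, 70.6 and 158 CPM in normal lung and 55.6, 279.8, 54.5, 51.8 and 358 CPM in SCC, with the high-signal libraries below each normal one (high-signal fit, log2 fold change -1.73, edgeR adjusted p = 0.000466).

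Small subunit genes were split likewise. Rpsa, the laminin receptor homolog on the head of the small subunit and the member of highest CPM in SCC 2, had 439.5, 187, 412, 263 and 451 CPM in normal lung and 386, 968, 247, 265 and 812 CPM in SCC. Rps6, the substrate of the S6 kinases downstream of mTOR, had 287, 194, 349.9, 233 and 161 CPM in normal lung and 259, 536, 159.6, 171 and 505 CPM in SCC. SCC 2 and SCC 5 exceeded each normal library in both genes, and SCC 1, SCC 3 and SCC 4 lay within the normal range or, for Rps6 in SCC 3, just below it. Rps3, a protein of the mRNA entry that also has a DNA repair role, had 110.3 to 226 CPM in normal lung and 99.9, 261, 78.2, 64.7 and 449 CPM in SCC. Rps19, the gene most often mutated in Diamond-Blackfan anaemia, had 45.8 to 89.9 CPM in normal lung and 86.7, 148, 51.7, 37.8 and 106 CPM in SCC. None of the 4 passed the test over 5 SCC libraries (edgeR adjusted p = 0.452, 0.641, 0.937 and 0.730).

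Rps26, which lies at the mRNA exit, and Rps25, which viral internal entry sites need, were the small subunit genes next to Rps2 in the ranking. Rps26 had 99.1, 58.1, 103, 67.9 and 150.2 CPM in normal lung and 147, 297, 78.7, 66.7 and 323 CPM in SCC. It stood at 0.83 (SE 0.43, edgeR adjusted p = 0.187), and at 1.58 in the low-signal fit (adjusted p = 0.00495). Rps25 stood at 0.77 (SE 0.42, adjusted p = 0.208), with SCC 1, SCC 2 and SCC 5 above each normal library. Of the 19 members mutated in Diamond-Blackfan anaemia, 0 passed the test over 5 SCC libraries by edgeR or DESeq2, with 0 at an unadjusted p under 0.05, while 4 of 19 were higher in the low-signal fit (25 of 83 members and 4.14% of all genes were), and 8 of 18 were lower in the high-signal fit (31 of 83 members and 18.9% of all genes were).

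At the low end, no gene passed the test with all libraries. Rpl10, at the junction of the tRNA sites in the large subunit, had 462, 357, 379.6, 272 and 323 CPM in normal lung and 211, 381, 144, 129 and 460.2 CPM in SCC (-0.53, SE 0.40, edgeR adjusted p = 0.393). Rps29, a small zinc-binding protein of the small subunit, had 266, 175, 138, 201 and 209.9 CPM in normal lung and 93.3, 232, 52.3, 74.7 and 243 CPM in SCC (-0.61, SE 0.42, adjusted p = 0.335). In both genes SCC 1, SCC 3 and SCC 4 lay below each normal library and SCC 2 and SCC 5 stayed at normal levels. Rpl34 had 105, 107, 111, 177 and 172 CPM in normal lung and 84.8, 218, 4.40, 20.9 and 203 CPM in SCC, 8 counts being behind the value of SCC 3 (-0.45, SE 0.58, adjusted p = 0.648). Rpl8 (-0.38, SE 0.41) and Rpl37a (-0.36, SE 0.42) were likewise below each normal library in SCC 1, SCC 3 and SCC 4, with adjusted p of 0.573 and 0.603. In the low-signal fit the folds of Rps29, Rpl10, Rpl34, Rpl8 and Rpl37a were above 0 (0.15, 0.12, 0.51, 0.41 and 0.42).

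In the low-signal fit 25 of 83 tested members were higher and 0 lower (edgeR adjusted p under 0.05), with 59 at an unadjusted p under 0.05 and a median log2 fold change of 0.95. Over all 14305 genes tested in that fit 4.14% were higher and 5.16% lower (9.3% in all), and the median was 0.005. Both low-signal libraries lay above all normal libraries in 69 members and below them in 0, against 16.8% and 10.4% of all genes. Among the highest were Rplp0 (1.69), Rpl12 (1.67), Rpl10a (1.58) and Rps26 (1.58). In the high-signal fit 31 of 83 were lower and 3 higher, with a median of -0.69, where 18.9% of 15520 genes were lower and 24.7% higher (43.6% in all). Lowest among these were Rpl34 (-2.29, adjusted p = 0.00223), Rps27 (-2.20, adjusted p = 0.000963) and Rps29 (-1.80, adjusted p = 0.000167). The 3 higher ones were Rpl29 and the tissue-restricted paralogs Rpl3l and Rpl10l. Rpl3l and Rpl10l did not pass the filter over all libraries and entered this fit through their SCC counts. Their calls are therefore no support for a rise. The background equalled 44.7% (Rpl3l) and 24.1% (Rpl10l) of their counts in the high-signal libraries. Both fits use the same 5 normal libraries, and the sets follow the receptor signal, so their difference was not tested. No background was subtracted in either fit. In the high-signal libraries it equalled 22.3% to 23.9% of all counts and 2.46% to 3.60% of member counts. Its part in the members called lower was not tested. Over all SCC libraries with the background subtracted, the median was 0.62, with 8 members higher and 0 lower.

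**Figure D4:**
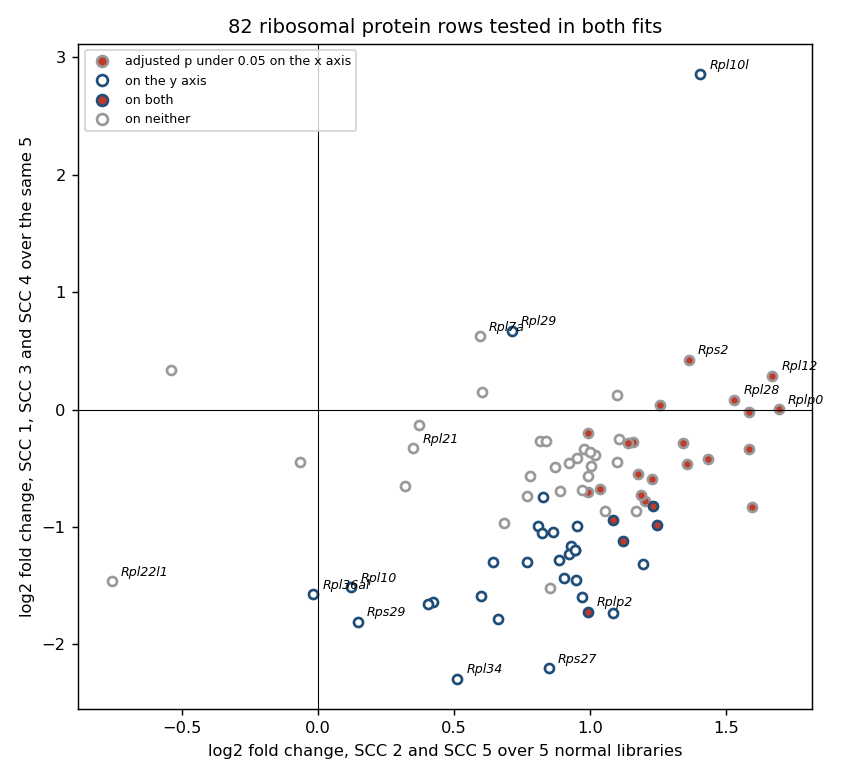
Log2 fold change of each of 82 ribosomal protein genes tested in both fits, SCC 2 and SCC 5 over normal lung on the x axis and SCC 1, SCC 3 and SCC 4 over the same normal libraries on the y axis; a red fill marks an adjusted p under 0.05 on x and a blue rim one on y. Most genes lie right of 0 and below 0, with Rplp0 and Rpl12 farthest right (1.69 and 1.67) and Rpl34 and Rps27 lowest (-2.29 and -2.20). No background is subtracted in either fit.

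By single library, 71 and 74 of 81 members lay above each normal library in SCC 2 and SCC 5, where 29.3% and 28.2% of all tested genes did. In SCC 1, SCC 3 and SCC 4, 25, 44 and 39 members lay below each normal library, where 26%, 22.9% and 23.9% of all tested genes did. The median ratio of a member to its normal mean was 0.894, 1.87, 0.626, 0.697 and 2.23 in SCC 1 to SCC 5. These values keep the background in the library total, and its part in the members below normal lung was not tested. The lowest member in SCC 5 was Rpl22l1, with 1 count, and the lowest in SCC 2 was Rpl36al, at 0.771 of its normal mean.

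With the 88-gene total in place of the library size, 1 of 79 members was higher, Rpl12, and 1 lower, Rps29 (edgeR adjusted p under 0.05). Over all 12132 genes tested in that fit 6.64% were higher and 7.49% lower. This scale centres the members near 0 by construction (median 0.03), so their share cannot be set against that of all genes.

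Ratios were also set beside coding length. Among the 77 members of at least 20 CPM, the 16 with coding parts of up to 350 bases had a median ratio of 0.624 in the high-signal libraries over normal lung (range 0.282 to 1.02). The 37 of 351 to 600 bases had 0.912 (0.273 to 2.06), and the 24 longer ones 0.800 (0.408 to 1.97). In the low-signal libraries the corresponding medians were 1.94, 2.14 and 2.20. Across the 77 genes, which share their libraries, the Spearman correlation of ratio with coding length was 0.26 in the high-signal and 0.24 in the low-signal libraries, both weak. The ranges overlap, and RNA length or quality as a factor was not tested.

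In the further named members except Rpl21, SCC 2 and SCC 5 exceeded each normal library. Rpl21 had 263 to 547 CPM in normal lung and 371, 557, 377, 416 and 495 CPM in SCC, where only SCC 2 left the normal range. Rpl13a, part of a complex that silences inflammatory mRNAs, had 233 to 389 CPM in normal lung and 281, 800.1, 170.1, 165 and 816 CPM in SCC. Rps27a, made as a fusion with ubiquitin, had 275 to 379 CPM in normal lung and 214, 565, 116, 179 and 697 CPM in SCC. Rpl3, which helps form the peptidyl transferase centre, had 207 to 279.9 CPM in normal lung and 222, 554, 160.2, 163 and 459 CPM in SCC. Rps4x, the X-linked form of Rps4, had 71.1 to 208 CPM in normal lung and 88.6, 322, 86.4, 86.6 and 324 CPM in SCC. Rpl7 had 158 to 323 CPM in normal lung and 189, 387, 121, 140.4 and 485 CPM in SCC, and Rpl39 91.6 to 130.3 and 59.4, 135, 79.8, 68.7 and 297 CPM.

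Per kb of coding length, the highest levels in normal lung were those of Rpl41 (1318 CPM per kb), Rps29 (1179) and Rplp1 (911), all with short coding parts. These were 138, 168 and 342 bases in transcripts of 509, 390 and 499 bases. Levels per kb of transcript were not computed, and the ranking depends on the length used. By this measure levels were far from equal: Rps3 had 236, Rps19 105 and Rpl26 17.6 CPM per kb of coding length. Rpl30, a core protein of the large subunit, had 8, 1, 19, 4 and 0 counts in normal lung and 4, 0, 2, 1 and 9 in SCC, and was not tested. Rpl26, which binds near the tunnel exit, had 65, 12, 36, 4 and 0 counts in normal lung and 0, 24, 1, 0 and 17 counts in SCC (-1.37, SE 1.08, edgeR adjusted p = 0.409). Of their transcripts, 47.8% (Rpl30) and 71.3% (Rpl26) of the stretches of 50 bases also occur in other annotated genes, against 92.1% for Rpl10, which was counted at 559 CPM per kb.

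Paralogs and other rows that the symbols take in made up the remainder. Rpl22l1, the counterpart of Rpl22, had 53, 32, 61, 38 and 25 counts in normal lung and 14, 79, 4, 8 and 1 in SCC (-1.01, SE 0.76, edgeR adjusted p = 0.394). Rpl36al stood at -0.63 (SE 0.44, adjusted p = 0.348), with 51.2, 33.5, 52.8, 42.4 and 65.9 CPM in normal lung and 22.6, 37.9, 19.3, 21.9 and 66.1 CPM in SCC. Its parent Rpl36a had 115, 113, 76.4, 56.7 and 100.2 CPM in normal lung and 85.8, 135, 33.6, 77.7 and 271 CPM in SCC. Rps27l, a p53 target, had 8.87 to 20.6 CPM in normal lung and 3.77, 19, 9.36, 4.98 and 34.7 CPM in SCC, with no difference that passed the test (adjusted p = 0.999). Its parent Rps27 had 29.7 to 95.4 CPM and 25.5, 97.2, 11, 13.9 and 133 CPM. Rpl7l1, a ribosome assembly protein, had 32.4 to 98.4 CPM in normal lung and 38.8 to 73.5 CPM in SCC, a full overlap of the groups.

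The 7 members that did not pass the filter were Rpl30, Rpl3l, Rpl10l, Rpl39l, Rps4l, Rps19bp1 and Rps27rt, of which Rps27rt was listed at 0 in each library. Rpl3l, which replaces Rpl3 in heart and skeletal muscle, had 6, 0, 0, 0 and 0 counts in normal lung and 9, 29, 19, 14 and 2 in SCC. The length-based background equalled 44.7% of its counts in the high-signal libraries and 14.9% in the low-signal ones. Heart muscle markers were lower in SCC in 7 of 9 tested genes, the 11 listed genes summing to 1266 to 2162 CPM in normal lung and 197 to 880.2 CPM in SCC. Myh6, the atrial myosin, stood at 127 to 408 and 7.04 to 60 CPM, while Ttn (405 to 1084 and 128 to 626 CPM) and Pln (0.684 to 22 and 0.542 to 17.1 CPM) overlapped between the groups. Nppa was at 0, 0, 1.91, 0 and 0.686 CPM in normal lung and 7.54, 2.44, 6.61, 1.99 and 0.817 CPM in SCC. The part of heart muscle RNA in the Rpl3l counts was not tested. The testis paralog Rpl10l had 1, 1, 6, 6 and 6 counts in normal lung and 14, 22, 24, 20 and 9 in SCC, and Rpl39l had 0, 0, 6, 4 and 2 in SCC. The background equalled 24.1% and 75.1% of these counts in the high-signal libraries. Where other filters or a left-out library let Rpl3l into the test it was called higher with no filter, with a filter of 1 CPM in 5 libraries, and without normal 1, normal 2, normal 4, normal 5 or SCC 5. Rpl10l was called higher without normal 5 and without SCC 5. Except with no filter, both entered these tests mainly through the SCC libraries where they are high. The calls are therefore not independent support.

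By summed CPM with no background subtracted, genes around the ribosome divided into those that followed the ribosomal proteins and those that did not. Elongation factors summed to 2780.0, 2406, 2556, 2167 and 2448 CPM in normal lung and 1892, 4232, 1512, 1298 and 3887 CPM in SCC, with 0 of 10 passing the edgeR test over 5 SCC libraries, 1 higher at an unadjusted p under 0.05 and 1 higher by DESeq2. Eef1a1, which delivers tRNA to the ribosome, had 1587, 1319, 1345, 1194 and 1303 CPM in normal lung and 786, 2369, 668, 553 and 1685 CPM in SCC. Initiation factors summed to 3229.5 to 5167 CPM in normal lung and 2859, 5414, 2269.5, 2333 and 5918 CPM in SCC, with 0 of 39 passing by edgeR, 1 higher and 4 lower at an unadjusted p under 0.05, and 1 higher by DESeq2. In both lists of factors SCC 2 and SCC 5 had the highest sums of all 10 libraries and SCC 3 and SCC 4 the lowest.

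The sums of nucleolar genes did not separate the SCC libraries into ones above and ones below normal lung. The part of the background in these sums was not computed, and it was largest in the high-signal libraries over all counts. Whether the division holds without it was not tested. Ribosome biogenesis genes summed to 1289, 1047, 1951, 1161 and 1091 CPM in normal lung and 1674, 2307, 1664, 1701 and 2128 CPM in SCC, where 2 of 50 tested genes were higher and 0 lower (median log2 fold change 0.48), below the 12.5% of all genes called higher. The SCC sums lay at 1.27 to 1.76 times the normal mean, overlapping normal 3 at 1.49. The higher genes were Nip7, an assembly factor of the large subunit (1.70, SE 0.38, edgeR adjusted p = 0.00170), and Rrs1, which brings the 5S particle into the assembling subunit (2.40, SE 0.67, adjusted p = 0.0113). Nip7 had 29.7, 26, 17.5, 24.7 and 24 CPM in normal lung and 82, 64.7, 98, 108 and 78 CPM in SCC, with no overlap. RNA polymerase I genes had 2 of 15 higher and 0 lower (median 0.94), close to that 12.5%. These were Cd3eap (2.02, SE 0.54, adjusted p = 0.00848) and Polr1e (2.73, SE 0.94, adjusted p = 0.0395). In the high-signal fit Nip7, Rrs1, Cd3eap and Polr1e each passed (1.61, 2.07, 2.04 and 2.94, adjusted p = 0.0014, 0.0361, 0.00587 and 0.0189). In the low-signal fit none of the 4 passed, at log2 fold changes of 1.44, 2.48, 1.5 and 1.69 (adjusted p = 0.0744, 0.0908, 0.267 and 0.507). The background was not subtracted in either fit, so its part in the high-signal calls was not tested. Over 5 SCC libraries with the background subtracted, Nip7, Rrs1 and Cd3eap still passed (2.10, 2.67 and 2.43, adjusted p = 0.00139, 0.0253 and 0.0129). Polr1e was not tested with the background subtracted. Without 1 library the call was lost for Polr1e in 7 of 9 fits and for Cd3eap in 2 of 10 (without SCC 3 or SCC 4). Myc, an activator of these genes, had 14.7, 9.57, 5.43, 14.7 and 1.37 CPM in normal lung and 19.8, 26, 31.4, 48.8 and 30.2 CPM in SCC and did not pass the test (adjusted p = 0.0558).

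**Figure D5:**
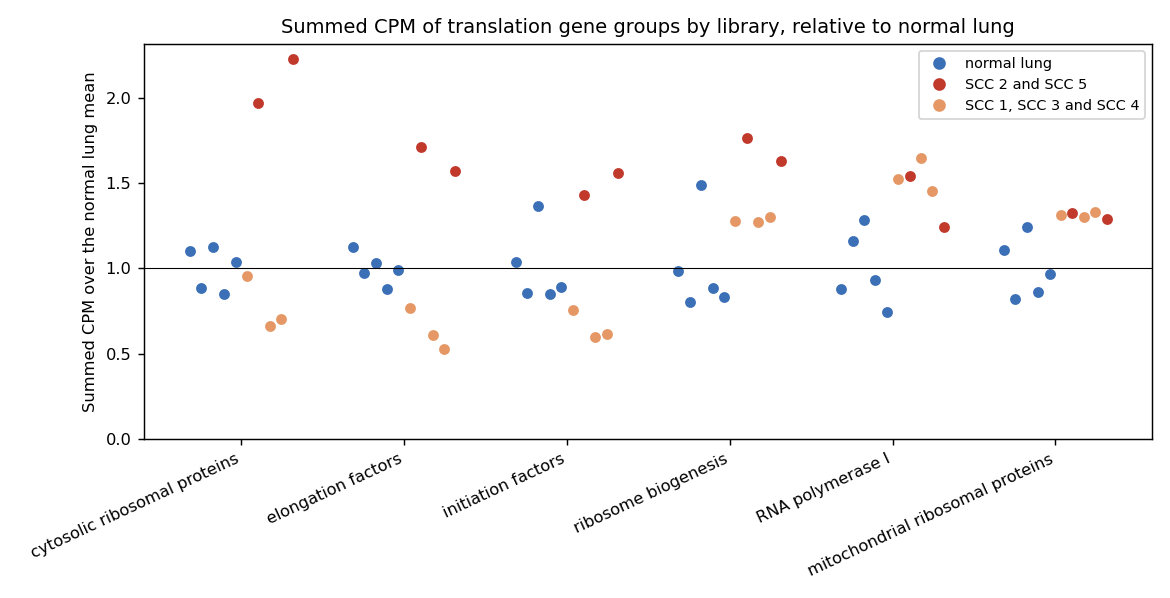
Summed CPM of 6 gene groups in each library, divided by the mean of the 5 normal libraries, with normal lung in blue, SCC 2 and SCC 5 in red and SCC 1, SCC 3 and SCC 4 in orange. Cytosolic ribosomal proteins and the elongation and initiation factors fan out in SCC (0.662 to 2.23 for the ribosomal proteins), and mitochondrial ribosomal proteins stay between 1.29 and 1.33. No background is subtracted from the sums.

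The summed level of the mitochondrial ribosomal proteins, which serve a separate ribosome, did not fan out. Their 77 genes summed to 941, 699, 1056, 731 and 821 CPM in normal lung and 1114, 1127, 1108, 1129 and 1094 CPM in SCC. Each SCC library lay above each normal library, and the highest SCC sum was 1.03 times the lowest, against 3.37 times for the cytosolic ribosomal proteins. No background was subtracted from these sums. The receptor signal was 3.45 to 3.70 CPM per kb in the high-signal libraries and 0.435 to 0.621 in the low-signal ones. Its part in the mitochondrial sums was not computed, so the narrow range holds for unsubtracted values only. Of 71 tested mitochondrial members 0 passed the edgeR test in either direction over 5 SCC libraries, 6 were higher and 0 lower at an unadjusted p under 0.05, and DESeq2 called 3 higher (median log2 fold change 0.26). By set the medians were 0.13 in the low-signal fit (1 of 75 higher, 0 lower) and -0.23 in the high-signal fit (1 of 71 higher, 4 lower).

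Other TOP mRNA genes had the same signs by set as the ribosomal proteins. In the low-signal fit 6 of 27 were higher and 1 lower (median 0.66, against 4.14% and 5.16% of all genes), and in the high-signal fit 0 of 26 were higher and 11 lower (median -0.70, against 24.7% and 18.9%). Over 5 SCC libraries they had 1 of 27 higher, Snhg8 (1.28, SE 0.43, adjusted p = 0.0329), and 1 lower, the mesenchymal filament gene Vim (-1.77, SE 0.38, adjusted p = 0.00125). Genes of S6 kinases and mTOR had 0 of 17 passing by edgeR or DESeq2, 1 lower at an unadjusted p under 0.05, and summed to 712 to 847 CPM in normal lung and 714 to 928 CPM in SCC. Markers of cycling cells (Mki67, Top2a and Cenpf) summed to 40.3 to 83.3 CPM in normal lung and to 133, 206, 315, 282 and 617 CPM in SCC. The sum was higher in SCC 3 and SCC 4 than in SCC 2, with no background subtracted. In SCC 2, SCC 3 and SCC 4, Cenpf had 40.9, 132 and 104 CPM. Mki67 had 139.5, 150 and 153 CPM and Top2a 25.5, 33.6 and 24.9 CPM in the same libraries. Leukocyte markers summed to 850.3 to 1287 and 309.7 to 522 CPM, and the part of cell mixture in the ribosomal protein levels was not tested.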

How the data were processed

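The authors deposited raw read counts, whole numbers for each symbol and library. The submitters' processing notes name build mm10 and the tools TopHat2 2.0.1, HTSeq 0.6.1, cutadapt 1.9.1 and DESeq2. How reads with several matches were counted, with which annotation and strand setting, is not stated there. The test used edgeR 4.0.16 in R 4.3.3: filterByExpr by group left 13203 genes, TMM factors were computed, and 5 SCC libraries were compared with 5 normal libraries by the quasi-likelihood test with robust estimation, p-values adjusted over all genes. The SE is the log2 fold change divided by the root of F. CPM uses all counts of a library without TMM. The test was checked on simulated counts with known changes, drawn for both groups with the common spread of the normal libraries. The simulation gave the SCC libraries no receptor signal and no sets, so it does not cover the spread seen in SCC.

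Alternatives used limma 3.58.1 (voom), DESeq2 1.42.0, other factors and filters, single libraries left out, sets of SCC libraries, and subtraction of a background from 1453 receptor genes, values above percentile 98 of each library being set to it. For 24026 genes a length was taken from GENCODE M21 (GRCm38). Named members were the 8 of highest and 8 of lowest fold, the 5 of highest CPM and genes fixed by role. Members and lists were chosen with earlier results of these data known. Values of some genes are not reported here.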

Additional observations from a re-analysis of the deposited data

Results flagged for a closer look

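Groups of 5 libraries were checked for a value far from the rest in 40 named members (80 groups). The gap to the nearest library, divided by the range, exceeded Dixon's critical value of 0.71 in 4 of them, and chance flags about 1 in 20 groups. Rpl3l was at 2.15 CPM in normal 1 and at 0 in the other normal libraries. Rpl39l was at 0.440 CPM in normal 3 and at 0 in the other normal libraries. Rps4l was at 21.6 CPM in SCC 5, with 7.71 CPM as the nearest SCC value. Rpl3, a core protein of the large subunit, was at 280 CPM in normal 3, with 220 CPM as the nearest normal value.

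Rows of ribosomal protein pseudogenes, which the selection leaves out, had a higher summed CPM in SCC than in normal lung. Their 7 rows summed to 23.3, 21.9, 23.2, 9.26 and 15.1 CPM in normal 1 to normal 5 and to 53.7, 44.4, 37.4, 44.8 and 109 CPM in SCC 1 to SCC 5. The lowest SCC library, at 37.4 CPM, lay above the highest normal library. Counts were low, and in SCC 5 single rows held 138 and 82 of the 266 counts. No background was subtracted, and its part in these sums was not tested.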

How the results depend on the processing

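The number of members called higher was 2 with all libraries, 7 with upper-quartile factors, 5 with no factor, 1 with no low-count filter and 1 with a filter of 1 CPM in 5 libraries (Rpl3l in both, with Rpl12 and Rps2 lost), 6 with DESeq2, 25 with SCC 2 and SCC 5 only, 8 after background subtraction and 1 on the scale of summed member counts. Leaving out 1 library gave 0 to 2, with 0 without normal 3, SCC 2 or SCC 4. Apart from Rpl12, the members called there were Rpl3l and Rpl10l, which entered those tests mainly through their SCC counts. The number called lower was 0 except for 30 with limma-voom, 31 with SCC 1, SCC 3 and SCC 4 only (an alternative chosen after seeing the data) and 1 on the member scale. Over all genes, 1645 were higher and 1146 lower, against 5470 and 2072 with no filter, 3551 higher with the 1 CPM filter, 3259 and 2766 with limma-voom, 592 and 738 with SCC 2 and SCC 5 only, 967 higher after background subtraction, 805 higher and 909 lower on the member scale, and 3841 and 2927 with SCC 1, SCC 3 and SCC 4 only. The ratio of summed CPM was 2.10 with SCC 2 and SCC 5 only. The members' median turned negative with limma-voom (-0.56), with SCC 1, SCC 3 and SCC 4 only (-0.69) and without SCC 5 (-0.04). The median of all genes was 0.07 and moved to 0.25 with no factor, 0.27 with upper-quartile factors, 0.37 with the 1 CPM filter and 0.71 with no filter, where the members stood at 0.45, 0.44, 0.37 and 0.02. Of the named members tested, 17 of 36 turned negative with limma-voom, 18 of 35 with SCC 1, SCC 3 and SCC 4 only, 10 of 36 with no filter and 10 of 35 on the member scale, 8 of 36 turned positive with SCC 2 and SCC 5 only, and leaving out 1 library turned at most 11 of 35 (SCC 5). Among those whose fold over 5 SCC libraries is printed, signs turned for Rps26 (-0.19) and Rps25 (-0.16) with limma-voom, for Rps29 (0.15), Rpl10 (0.12), Rpl34 (0.51), Rpl8 (0.41) and Rpl37a (0.42) with SCC 2 and SCC 5 only, and for Rpl10a (-0.020) and Rps26 (-0.34) with SCC 1, SCC 3 and SCC 4 only. Apart from settings with fewer samples or other genes tested, the cause was not tested. No paired analysis was possible because the labels carry no replicate numbers. SCC 1 and SCC 4, at 1060726 and 1004105 counts, limit the members of low count most.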
